A study of Mus musculus with 14 samples.

Results

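The acetyltransferase module shared by the SAGA and ATAC coactivator complexes was examined through the mRNA of its subunits, Sgf29, Kat2a, Kat2b, Tada2a, Tada2b and Tada3. These 6 genes were chosen by symbol, as the known subunits of the module, from the 22155 genes of the RNA sequencing count table. Sgf29 is also the gene targeted by CRISPR in the experiment. All 6 members were among the 11169 genes with enough counts to be tested. Mouse MLL-AF9-Cas9+ leukemia cells derive from bone marrow cells without lineage markers that were transformed with a retrovirus for the MLL-AF9 fusion, passed through recipient mice and given Cas9 with a lentivirus (lentiCas9-Blast), so that both groups carry the fusion and Cas9. A second lentivirus, ipUSEPR, delivered either control guide RNA (sgCtrl) or guide RNA against Sgf29 (sgSgf29). Both groups were held in 2 μg/ml puromycin for 3 days. There were 3 libraries per group among the 14 samples of the series, and the chromatin samples were not analysed here. The cells of each group were transduced in culture, and no isolation of single clones is described. Cells with and without a disrupted Sgf29 gene may therefore be mixed.

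SAGA and ATAC are large complexes that add acetyl groups to histones at active genes. In both complexes the enzyme, Kat2a (GCN5) or its paralogue Kat2b (PCAF), works within a module that also holds an Ada2 adaptor, Tada3 and Sgf29. Tada2b is the adaptor found in SAGA and Tada2a the adaptor found in ATAC, whereas Sgf29, Tada3 and the catalytic subunits serve both. Sgf29 has a tandem Tudor domain that recognizes methylated lysine 4 of histone H3, and the module acetylates lysine 9 of the same histone.

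The members split evenly by direction. Sgf29, Kat2a and Tada2a mRNA was lower in the sgSgf29 cells and Kat2b, Tada2b and Tada3 mRNA was higher. For both pairs of paralogues, the member that was more abundant in the sgCtrl cells (Kat2a, Tada2a) fell and the less abundant one (Kat2b, Tada2b) rose. All 6 passed the test (edgeR's quasi-likelihood test with Benjamini-Hochberg adjustment over all tested genes, called at an adjusted p under 0.05), in a comparison where 69.8% of all tested genes were called, 34.4% lower and 35.4% higher. In each member the 3 sgSgf29 libraries lay wholly on one side of the 3 sgCtrl libraries, as was the case for 72.1% of all tested genes. A call is the common outcome for a gene in this comparison, so the count of called members is not read as a result about them. The median absolute log2 fold change was 0.67 over the members and 0.42 over all tested genes, and the median signed values were -0.06 and 0.01. The member medians include Sgf29, the target of the guide RNA, at -1.43, which raises the absolute one. Absolute changes of the other members ran from 0.45 (Tada2b) to 0.90 (Kat2b).

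**Figure D1:**
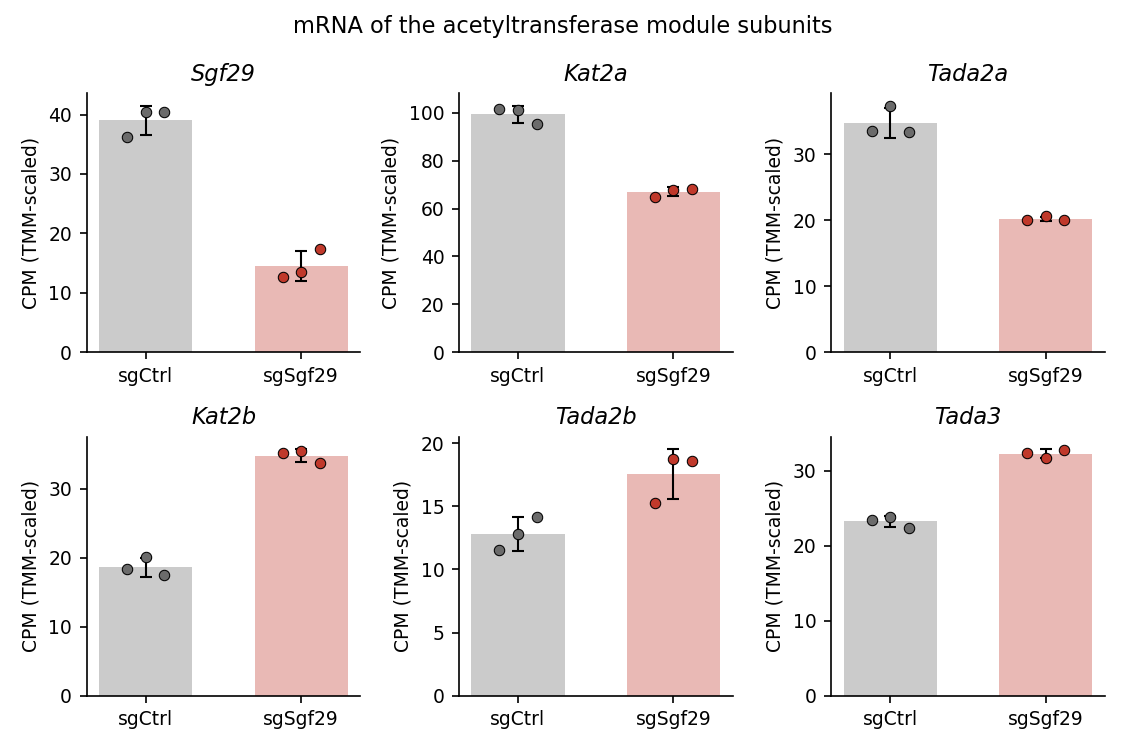
Messenger RNA of the 6 members in CPM after TMM scaling (vertical axes, each from 0) with sgCtrl and sgSgf29. Bars show means, error bars the SD of 3 libraries and points single libraries. The upper row (Sgf29, Kat2a, Tada2a) was lower in each sgSgf29 library than in any sgCtrl library, and the lower row (Kat2b, Tada2b, Tada3) higher.

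The libraries held 16003990 to 21786618 reads assigned to genes, and a further 25.8% to 31.4% of the table was bookkeeping entries for unassigned reads. Values are CPM, the reads of a gene relative to the library total after that total is scaled with trimmed-mean factors (TMM), and changes are log2 fold changes of sgSgf29 against sgCtrl from edgeR. TMM factors were 0.917 to 0.934 in the sgCtrl and 1.06 to 1.10 in the sgSgf29 libraries. The biological coefficient of variation over all tested genes was 6.61%. The labels do not state separate cultures for the libraries of a group, nor what the numbers after sgCtrl and sgSgf29 mark (repeats or guide sequences), so p-values measure only the spread between these samples. Cell identity markers moved with the groups. Of 12 mature myeloid markers 8 were higher in the sgSgf29 cells, 3 were lower (Ly6c2, Ltf and Camp) and 1 did not pass, with a median log2 fold change of 1.65, and their summed level was 10159 to 10725 CPM in the sgCtrl and 26516 to 28255 CPM in the sgSgf29 libraries. Of 6 progenitor and leukemic blast markers 4 were lower and 2 (Ptprc and Meis1) higher. Their sums were 14012 to 15319 CPM in the sgCtrl and 9478 to 9832 CPM in the sgSgf29 libraries. Elane alone averaged 14238 and 9302 CPM and made up nearly all of this sum. The largest terms of the mature myeloid sum were S100a9 (3447 and 13074 CPM) and S100a8 (2779 and 7967 CPM). The part of these shifts in the changes of the 6 members was not tested, and in bulk RNA fewer cells of a type and less RNA per cell cannot be told apart. Hbb-bs and Hba-a1 of the erythroid list, Pf4 of the megakaryocyte list and Cpa3 of the mast cell list were at 0 in all 6 libraries. Other genes of these lists were detected at low levels. Mcpt8 of the mast cell list fell from 9.61 ± 0.333 to 2.80 ± 0.511 CPM (log2 fold change -1.78) and Itga2b of the megakaryocyte list from 2.34 ± 0.339 to 1.05 ± 0.251 CPM (-1.13), both called lower by edgeR. Mcpt8 alone is not read as a mast cell signal, since Cpa3 of the same list was at 0 in all 6 libraries. Klf1 (1.58 and 1.26 CPM) and Gp9 (6.75 and 5.44 CPM) did not pass. The B cell, T cell and fibroblast lists each summed to at most 0.586 CPM in a library.

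Sgf29, the Tudor domain reader of the module and the target of the guide RNA, was not lost from the RNA but reduced. With sgCtrl it measured 36.2, 40.4 and 40.4 CPM in replicates 1 to 3, and with sgSgf29 12.6, 13.4 and 17.4 CPM. The highest sgSgf29 library remained well below the lowest sgCtrl library. The group means were 39.0 ± 2.47 and 14.5 ± 2.59 CPM (SD, n = 3 each). The log2 fold change was -1.43 ± 0.11 (estimate ± SE), with an adjusted p of 2.74e-11 in edgeR. The sgSgf29 cells thus held 37.2% of the control level (95% interval 32.0% to 43.3%), from 870 reads in all against 1982. Only 1.47% of the tested genes had a lower log2 fold change. Counts do not tell edited from unedited transcripts, so the remaining mRNA says nothing of how much functional protein was made. For the protein, the paper has a Western blot of Sgf29 in sgCtrl and sgSgf29 cells, which was not measured here.

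Among the sgSgf29 libraries, Sgf29 varied more than any other member. Its coefficient of variation there was 17.9%, against 6.32% in the sgCtrl libraries and 1.57% to 11.2% for the other 5 members in the sgSgf29 libraries. The smallest Sgf29 count, 215 reads, carries a counting error of 6.82%. Replicate 3 of sgSgf29 was the highest at 17.4 CPM. That library was also the lowest of its group for Kat2b and the highest for Kat2a and Tada3, although the spread of these 3 genes within the group was small.

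Sgf29 lies on chromosome 7 of GRCm38 (chr7:126649309-126672925, plus strand, GENCODE annotation). Its end shares 61 exonic bases with Sult1a1, a sulfotransferase gene on the opposite strand, and its start shares 169 exonic bases with the antisense gene 2510046G10Rik, which has no entry in the count table. Sult1a1 had 2 to 13 reads per library, against at least 215 for Sgf29. The strand setting of the counting is not given in the sources used here, so reads in these stretches cannot be assigned with certainty.

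Kat2a, the GCN5 acetyltransferase, was the most abundant member. Its sgCtrl libraries read 101.5, 101.4 and 95.2 CPM and its sgSgf29 libraries 64.9, 67.9 and 68.4 CPM. Neither group spread by more than a few CPM and they did not overlap. Against means of 99.4 ± 3.58 and 67.0 ± 1.90 CPM (SD, n = 3 each), the log2 fold change was -0.57 ± 0.065 (adjusted p = 2.81e-08 in edgeR), which is 67.5% of the control level (95% interval 61.6% to 74.1%). Kat2b, the PCAF acetyltransferase, moved the other way, from 18.3, 20.2 and 17.4 CPM with sgCtrl to 35.2, 35.5 and 33.8 CPM with sgSgf29. Each sgSgf29 library exceeded each sgCtrl library by a wide margin. Its means were 18.6 ± 1.39 and 34.8 ± 0.911 CPM, and it rose by 0.90 ± 0.089 as a log2 fold change (adjusted p = 1.99e-09 in edgeR), to 187.2% of the control level (164.9% to 212.6%). It was the largest rise among the members, and 82.0% of all tested genes had a smaller absolute change, against 63.1% for Kat2a.

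Tada2a, the Ada2 adaptor of ATAC, had 33.4, 37.3 and 33.4 CPM with sgCtrl and 19.98, 20.55 and 20.03 CPM with sgSgf29. The groups were far apart and the sgSgf29 libraries were nearly equal. Between means of 34.7 ± 2.25 and 20.2 ± 0.316 CPM (SD, n = 3 each), the log2 fold change was -0.78 ± 0.087 (adjusted p = 1.79e-08 in edgeR), leaving 58.3% of the control level (51.5% to 66.0%). Tada2b, the Ada2 adaptor of SAGA, had 11.5, 12.8 and 14.1 CPM with sgCtrl and 15.3, 18.8 and 18.6 CPM with sgSgf29. Here the groups came closest, with replicate 1 of sgSgf29 just above the highest sgCtrl library. From 12.8 ± 1.32 to 17.6 ± 1.96 CPM on average, it rose by 0.45 ± 0.12 as a log2 fold change (adjusted p = 0.00119 in edgeR), to 136.9% of the control level (116.2% to 161.5%). Tada2b had the lowest counts of the members in the sgCtrl libraries (181 to 283 reads), whereas Sgf29 had fewer reads in each sgSgf29 library. Tada2b also had the widest interval relative to its change. It shares 411 exonic bases with Grpel1, a mitochondrial chaperone cofactor gene on the opposite strand, which itself fell from 98.8 ± 1.49 to 71.6 ± 4.12 CPM (log2 fold change -0.46), opposite in direction to Tada2b.

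Tada3, the Ada3 adaptor of both complexes, had 23.5, 23.9 and 22.4 CPM with sgCtrl and 32.4, 31.7 and 32.8 CPM with sgSgf29. These were tight groups that did not overlap. With means of 23.3 ± 0.762 and 32.3 ± 0.580 CPM (SD, n = 3 each), it rose by 0.47 ± 0.084 as a log2 fold change (adjusted p = 2.13e-05 in edgeR), to 138.9% of the control level (123.2% to 156.6%). The intervals of Tada3 and Tada2b covered much the same range. Of all tested genes, 55.3% had a smaller absolute change than Tada3 and 53.2% a smaller one than Tada2b, which places both near the middle of the changes in this comparison.

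**Figure D2:**
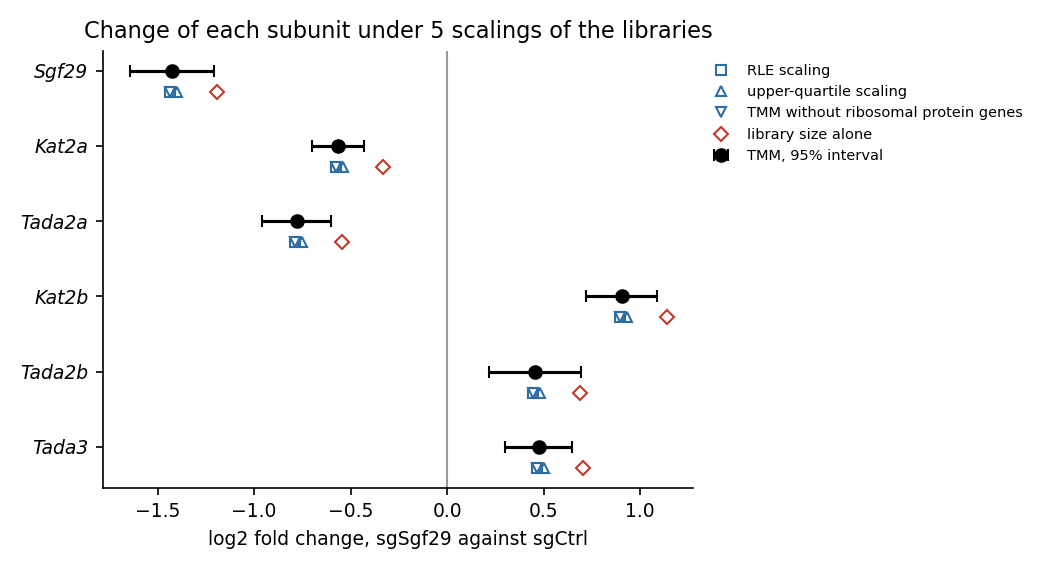
Log2 fold change of each member (horizontal axis, sgSgf29 against sgCtrl). Filled circles with bars are the estimates after TMM scaling with 95% intervals, and open symbols are the same fit under 4 other scalings. Library size alone moves every member to the right by the same amount, and no member crosses 0.

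The directions did not depend on the scaling of the libraries. With library size alone in place of TMM, the median log2 fold change of all tested genes moved from 0.01 to 0.24. Genes called lower made up 49.3% of all calls with TMM and 29.9% with library size alone. The members shifted by the same amount, to -1.19 for Sgf29, -0.33 for Kat2a, -0.55 for Tada2a, 1.14 for Kat2b, 0.69 for Tada2b and 0.71 for Tada3. Relative to the median of all genes, Kat2a was at -0.58 under both scalings. The largest adjusted p of a member under library size alone was 0.000118, for Kat2a, in edgeR.

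Levels of different genes can be compared only per length. After division by the exon length of each gene in kilobases, the order in the sgCtrl cells was Kat2a at 28.6 ± 1.03 CPM per kilobase, Sgf29 at 21.6 ± 1.37, Tada2a at 11.7 ± 0.756, Tada3 at 5.996 ± 0.196, Kat2b at 3.83 ± 0.285 and Tada2b at 3.38 ± 0.348 (SD, n = 3). The libraries of neighbours in this order did not overlap, except for Kat2b and Tada2b. In the sgSgf29 cells Kat2a remained first at 19.3 ± 0.546 CPM per kilobase and Tada2b last at 4.63 ± 0.516. Between them the members drew together, with Tada3 at 8.32 ± 0.149, Sgf29 at 8.04 ± 1.44, Kat2b at 7.15 ± 0.187 and Tada2a at 6.79 ± 0.106. Sgf29 overlapped with both Tada3 and Kat2b in this range, while Kat2b lay just above Tada2a in all libraries. The order depends in part on the length used. With the longest annotated transcript, Sgf29 overlapped Kat2a in the sgCtrl cells and Tada2a lay above Kat2b in the sgSgf29 cells.

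**Figure D3:**
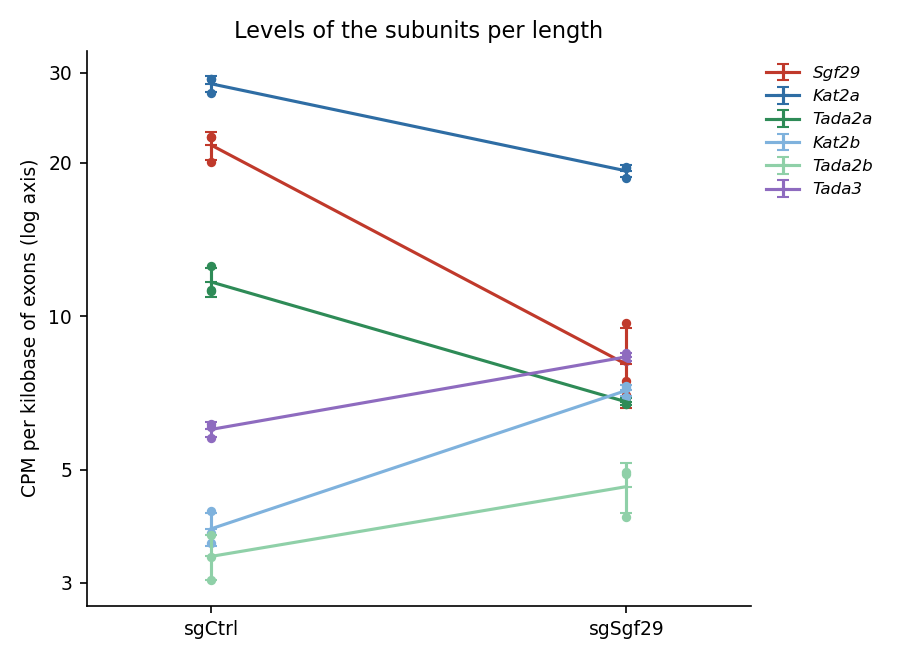
Level of each member in CPM per kilobase of exons (log axis) in the sgCtrl and sgSgf29 cells. Points are single libraries, and lines join the means with the SD of 3 libraries. Apart from Kat2a above and Tada2b below, the members lie between 6.79 and 8.32 in the sgSgf29 cells on average, against 3.83 to 21.6 in the sgCtrl cells.

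Summed per kilobase over the 6 genes, the mRNA of the module was lower in the sgSgf29 cells, at 75.1 ± 2.38 in the sgCtrl and 54.2 ± 2.20 CPM per kilobase in the sgSgf29 libraries, or 72.2% of the control level. This sum includes the targeted gene. Sgf29 went from 21.6 to 8.04 CPM per kilobase, the largest fall of any member, so 72.2% does not describe the untargeted members. Sgf29 made up 28.8% of the sum in the sgCtrl and 14.8% in the sgSgf29 cells. The share of Tada3 went from 7.99% to 15.4%. For the catalytic pair, the sum of Kat2a and Kat2b was 32.4 ± 1.25 and 26.4 ± 0.492 CPM per kilobase, or 81.6% of the control level, so that the rise of Kat2b was smaller in absolute terms than the fall of Kat2a. For the adaptor pair, the sum of Tada2a and Tada2b was 15.0 ± 0.824 and 11.4 ± 0.586, or 75.9%. None of these sums overlapped between the groups after TMM scaling. They were not computed under the other scalings, and unlike the directions of the members they depend on the scaling. With library size alone Kat2a fell less (log2 fold change -0.33) and Kat2b rose more (1.14), which brings the sums of the groups closer together. The lower sum of the catalytic pair and its lack of overlap are therefore given for TMM scaling alone.

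The balance within each pair can be read inside a library, where the scaling between libraries cancels. The log2 ratio of Kat2b to Kat2a per kilobase was -2.96, -2.81 and -2.93 with sgCtrl and -1.37, -1.42 and -1.50 with sgSgf29. Kat2a exceeded Kat2b 7.47-fold in the sgCtrl cells and 2.69-fold in the sgSgf29 cells. The ratio differed by 1.47 on the log2 scale (2.77-fold), with an exact two-sided permutation p of 0.1, which is the smallest that 3 libraries against 3 allow, and 0.1 after Benjamini-Hochberg adjustment over the 2 ratios. As a share of the pair, Kat2b made up 11.8% ± 0.552 of the mRNA per kilobase in the sgCtrl and 27.1% ± 0.921 in the sgSgf29 cells (SD, n = 3 each).

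The log2 ratio of Tada2a to Tada2b was 1.89, 1.89 and 1.59 with sgCtrl and 0.74, 0.48 and 0.46 with sgSgf29. Tada2a, the ATAC adaptor, was ahead of the SAGA adaptor in both groups, 3.46-fold in the sgCtrl and 1.47-fold in the sgSgf29 cells. The difference was -1.23 on the log2 scale, again with an exact permutation p of 0.1, the smallest possible. Tada2a accounted for 77.5% ± 2.15 of the adaptor pair in the sgCtrl and 59.5% ± 2.56 in the sgSgf29 cells. These are shares of mRNA, and the amounts of protein or of assembled complex were not measured here. In its Western blots of MLL-AF9-Cas9+ cells, the paper reports less Kat2a and less Kat2b protein after Sgf29 depletion. Kat2a mRNA measured here was lower as well, whereas Kat2b protein in those blots moved opposite to the Kat2b mRNA. From its RNA sequencing the paper states that KAT2A and KAT2B mRNA was not abolished by SGF29 depletion. It proposes that SGF29 controls the level of these proteins by a route independent of transcription, which was not tested here.

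**Figure D4:**
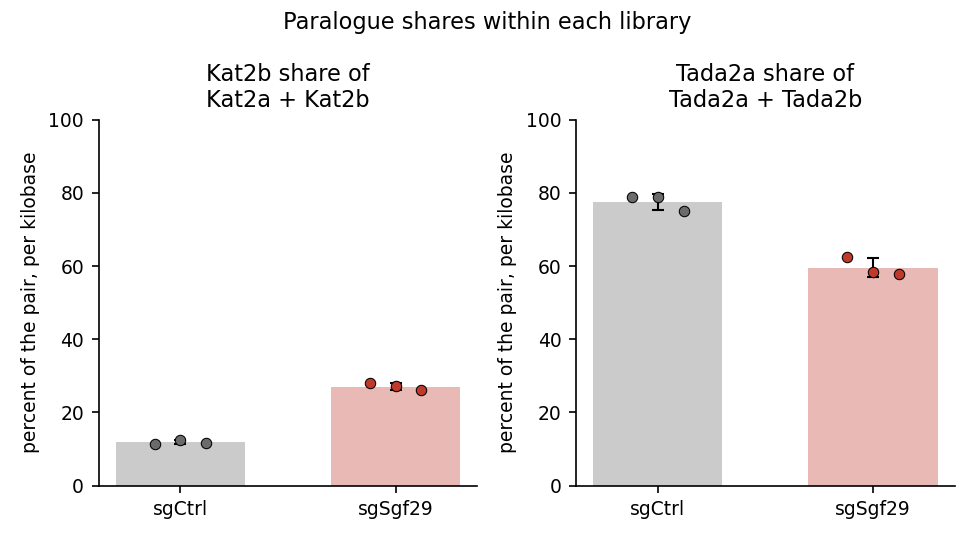
Share of Kat2b in the sum of Kat2a and Kat2b (left) and of Tada2a in the sum of Tada2a and Tada2b (right), in percent of CPM per kilobase, for sgCtrl and sgSgf29. Bars show means, error bars the SD of 3 libraries and points single libraries. Kat2b goes from 11.8% to 27.1% and Tada2a from 77.5% to 59.5%.

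The sequence before the annotated start is shown for the paralogues of both pairs. Whether it bears on the directions of their mRNA was not tested. The printed stretches differ in length, because exon bases were left out. The bases printed are those before the RefSeq start of each gene (GRCm38.p6), in the direction of transcription, without any base in a GENCODE exon, and capitals mark matches to a motif. The windows are chr11:100712468-100712717 (minus strand) for Kat2a, chr17:53566721-53566860 (plus) for Kat2b, chr11:84129601-84129671 (minus) for Tada2a and chr5:36484286-36484535 (minus) for Tada2b.
Kat2a: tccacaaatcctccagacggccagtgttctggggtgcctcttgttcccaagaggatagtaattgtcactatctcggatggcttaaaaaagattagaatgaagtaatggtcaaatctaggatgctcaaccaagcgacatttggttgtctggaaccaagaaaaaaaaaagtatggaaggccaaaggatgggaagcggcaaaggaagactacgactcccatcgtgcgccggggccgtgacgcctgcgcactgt
Kat2b: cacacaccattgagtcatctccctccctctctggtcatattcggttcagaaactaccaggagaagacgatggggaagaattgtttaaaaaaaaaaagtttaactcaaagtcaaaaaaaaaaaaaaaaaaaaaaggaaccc
Tada2a: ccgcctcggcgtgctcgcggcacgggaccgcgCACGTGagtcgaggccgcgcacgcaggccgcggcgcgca
Tada2b: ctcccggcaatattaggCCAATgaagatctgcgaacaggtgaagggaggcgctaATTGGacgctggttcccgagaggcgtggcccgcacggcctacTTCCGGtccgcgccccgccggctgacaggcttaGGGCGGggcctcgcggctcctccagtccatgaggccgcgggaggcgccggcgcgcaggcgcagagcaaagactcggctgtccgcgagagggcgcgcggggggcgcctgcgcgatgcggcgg

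The full 250 bases before the start were searched on both strands for 6 short motifs. The E-box was spelled CACGTG and the GC box GGGCGG. The CCAAT box was searched as its name reads. The ETS core was taken as CCGGAA. The cyclic AMP response element was taken as TGACGTCA, and the TATA box was searched as TATAAA. No matches overlapped in the members. Tada2b held 1 GC box, 2 CCAAT boxes and 1 ETS core, and Tada2a held 1 E-box and 2 GC boxes, the latter within an exon of the neighbouring gene Acaca and so not printed. Kat2b held 1 CCAAT box, in the 110 bases that GENCODE places inside its first exon, and a second RefSeq start of Kat2b held none of the 6. Kat2a, Sgf29 and Tada3 held none either. Among 32851 mouse promoters of the same length, 6.02% held the E-box, 32.7% the GC box, 33.9% CCAAT, 12.03% the ETS core, 1.55% the cyclic AMP element and 12.4% the TATA box. A match is a string of letters and not a bound site.

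Both adaptor genes had promoters rich in CpG, with 36 CpG in the 250 bases of Tada2a and 34 in those of Tada2b, against a median of 6 over all promoters. The other members had 16 (Tada3), 11 (Kat2a), 9 (Sgf29) and 6 (Kat2b). Members that fell and members that rose were found at both ends of this range, with Tada2a and Tada2b side by side at the top. The genes are scattered, with Kat2a and Tada2a on chromosome 11, Kat2b on chromosome 17, Tada2b on chromosome 5 and Tada3 on chromosome 6. GENCODE also lists 1 pseudogene named after Kat2b, on chromosome 5, and a processed pseudogene, Gm6919, inside an intron of Kat2b. Neither is an entry of the count table, and reads that match several places cannot be followed in these counts.

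Genes whose profile over the 6 libraries was most like that of a member, by Euclidean distance between log2 CPM values centred on their mean, were sought among 10760 named genes. Closest to Sgf29 were Rsbn1 (distance 0.23), Tma16 (0.25) and Rpp40 (0.26). Closest to Kat2a were Srsf10 (0.049), Elovl1 (0.063) and Ccdc22 (0.064), and to Kat2b Cyb561d1 (0.073), Far1 (0.083) and Mgll (0.091). With 2 groups, such a profile is mostly the size of the difference between them, and Srsf10 fell by 0.59 on the log2 scale where Kat2a fell by 0.57. Sgf29 had the most distant nearest gene of these 3 members.

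The rest of SAGA and ATAC moved in both directions as well, as did all tested genes, of which 34.4% were called lower and 35.4% higher. The counts of calls in the lists that follow are therefore not read as results about these lists. Of 8 genes of the SAGA deubiquitinase module, which removes ubiquitin from histone H2B, 6 were tested, and 3 were lower and 3 higher in the sgSgf29 cells, with a median log2 fold change of 0.10. Atxn7, the subunit that anchors this module to SAGA, had the largest change, at 11.1 ± 0.623 and 23.4 ± 0.738 CPM (SD, n = 3 each) and a rise of 1.08 ± 0.10 as a log2 fold change. Usp22, the catalytic subunit, rose from 36.5 ± 4.64 to 48.5 ± 1.33 CPM. Usp27x and Usp51 had too few reads to be tested.

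Of 13 genes of the SAGA core, its splicing module and Trrap, 11 were tested, of which 6 were lower, 3 were higher and 2 (Taf5l and Taf6l) did not pass, with a median of -0.28. The largest called change was that of Supt7l, a core scaffold subunit, which rose from 13.3 ± 0.629 to 20.7 ± 1.34 CPM (log2 fold change 0.63). Trrap, the large subunit that activators bind, rose from 92.7 ± 7.24 to 125.5 ± 4.38 CPM (log2 fold change 0.44). Taf9 and Taf9b had too few reads to be tested.

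All 8 ATAC-specific genes were tested, and 5 were lower, 2 were higher (Dr1 and Zzz3) and 1 (Pole4) did not pass, with a median of -0.32. The list is specific to ATAC relative to SAGA, and not all of its proteins belong to ATAC alone. The largest called change was in Pole3, a histone-fold subunit also found in DNA polymerase epsilon, which fell from 79.8 ± 2.54 to 42.0 ± 3.03 CPM (log2 fold change -0.93). Kat14, the second acetyltransferase of ATAC (listed as Csrp2bp), fell from 42.9 ± 2.77 to 32.1 ± 0.586 CPM (log2 fold change -0.42). With library size alone, 1 gene of the deubiquitinase module, 2 of the core list and 3 of the ATAC list were lower, so these splits, unlike those of the 6 members, depend on the scaling.

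Of 8 lysine acetyltransferases outside these complexes, 1 was lower, 4 were higher and 3 did not pass, with a median of 0.17. Ep300 rose most, from 51.5 ± 6.34 to 73.1 ± 5.47 CPM, with a log2 fold change of 0.51, and its paralogue Crebbp rose by 0.44 on the same scale. Kat2b, at 0.90, had a larger estimate than any of these 8, and its 95% interval began at 0.72. Hat1, the type B acetyltransferase of new histones, was the one called lower, at -0.37, and it was not called with library size alone. Kat2a, at -0.57, was below all of them in these estimates, although the differences between genes were not tested.

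**Figure D5:**
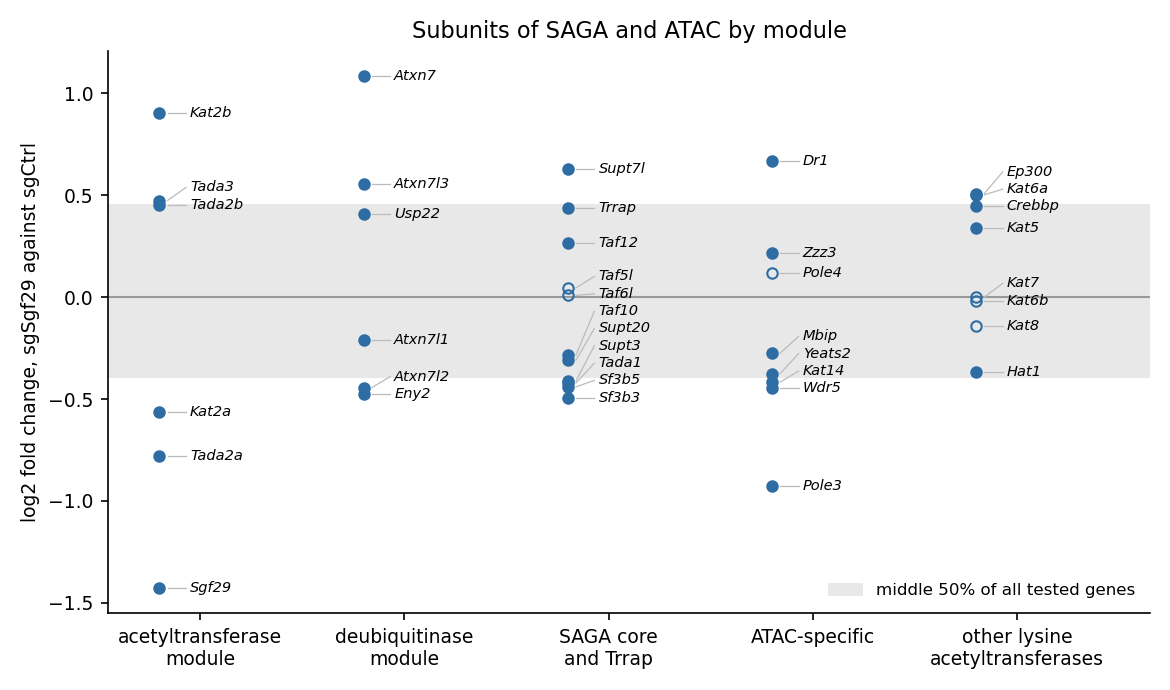
Log2 fold change (vertical axis, sgSgf29 against sgCtrl) of each tested gene of the acetyltransferase module, the deubiquitinase module, the SAGA core with Trrap, the ATAC-specific list and the other lysine acetyltransferases. Filled points passed the test at an adjusted p under 0.05 in edgeR, open points did not, and the grey band holds the middle quartiles of all tested genes (-0.39 to 0.45). Every list but the last spans from below to above the band, and Sgf29 is the lowest gene shown.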

How the data were processed

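Messenger RNA libraries of 3 sgCtrl and 3 sgSgf29 samples were compared. The authors deposited raw counts per gene in a single table. The paper names STAR, featureCounts and edgeR on the mm10 genome, the submitters' notes name STAR 2.6.0a and GRCm38, and the table ends in 5 bookkeeping entries of the htseq-count kind, which were left out (their share of each library is given with the results). Which annotation and strand setting were used is not given in the sources used here. The labels name a directional kit. Counts were filtered with filterByExpr (minimum count 10, total 15), scaled by TMM and tested over all 11169 genes in edgeR 4.0.16 under R 4.3.3 (quasi-likelihood fit, group only, Benjamini-Hochberg adjustment, threshold 0.05). Libraries of a group differed beyond sampling noise (4.48 to 15.4 for chi-square over its degrees of freedom). Ratios of paralogues used counts per kilobase of GENCODE M21 exons, which matched 21712 genes of the table, and an exact permutation test. Alternatives were scaling by RLE, by the upper quartile, by library size alone or by TMM without genes for ribosomal proteins, limma-voom (limma 3.58.1), DESeq2 1.42.0, no filter, a replicate block, the longest transcript and each library left out. Named were the members, the genes overlapping them, the 3 nearest profiles of Sgf29, Kat2a and Kat2b, and in each list the largest called change, with further members and the acetyltransferases added after their values were seen. A marker gene of the erythroid list is not reported here. The members and lists were chosen with earlier results of these data known.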

Additional observations from a re-analysis of the deposited data

How the results depend on the processing

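All 84 values of the 6 members under 14 alternatives kept their direction and stayed past the threshold, with a largest adjusted p of 0.0126 from edgeR, for Tada2b without sgSgf29 replicate 2. With each library left out in turn, the log2 fold change ran from -1.57 to -1.33 for Sgf29, -0.60 to -0.54 for Kat2a, -0.81 to -0.73 for Tada2a, 0.86 to 0.96 for Kat2b, 0.38 to 0.55 for Tada2b and 0.44 to 0.50 for Tada3. With library size alone, 2382 genes were called lower against 3842 with TMM and 5573 higher against 3956, which puts 29.9% of calls on the lower side in place of 49.3%. With the longest transcript as gene length, the mean log2 ratio of Tada2a to Tada2b was 2.26 in the sgCtrl and 1.03 in the sgSgf29 cells, and the difference between groups was the same by construction. Of the ATAC-specific genes, 1 instead of 2 was called higher with DESeq2, without sgCtrl replicate 1 and without sgSgf29 replicate 2. Same-numbered libraries deviated together only weakly (correlations 0.005 to 0.078), and 4 of 6 correlated best with their own number, so the numbers were not taken as pairs. With a replicate block, 3943 genes were lower and 4065 higher, and Sgf29 was at -1.43. The smallest count of a member in a library, for Tada2b, carries a counting error of 7.43%, and that of Sgf29 6.82%.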
